A study of Mus musculus with 4 samples.

Results

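NRF2 target genes and regulators were examined in IMS32 cells, a line of spontaneously immortalized adult mouse Schwann cells, the glial cells that ensheath peripheral axons. The members were 10 genes chosen by name, namely Nfe2l2, Keap1, Gclc, Gclm, Gsr, Txnrd1, Srxn1, Hmox1, Nqo1 and Osgin1. They were measured by 12 of the 39429 mouse probes on the array, which carry 31093 gene names. Hmox1 and Gsr had 2 probes each and the other 8 genes had 1. All cells were kept for 1 h in DMEM with 5% FBS, and the conditions were 5 mM glucose with 1 mM pyruvate [Glc 5 mM/Pyr (+)], 5 mM glucose without pyruvate [Glc 5 mM/Pyr (−)], 15 mM glucose with 1 mM pyruvate [Glc 15 mM/Pyr (+)] and 15 mM glucose without pyruvate [Glc 15 mM/Pyr (−)]. The study asked how loss of pyruvate acts on these cells under normal and high glucose. Each condition had 1 sample of total RNA on 1 Cy3-labelled array, and the 4 arrays lay on 1 slide, so that the conditions could not be compared against the spread between replicates. In RNA from a whole culture, fewer cells of a kind and less RNA per cell cannot be told apart.

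NRF2, encoded by Nfe2l2, is a transcription factor that is kept scarce in unstressed cells because KEAP1 presents it for ubiquitination and breakdown. Oxidants and electrophiles modify cysteines of KEAP1, NRF2 then accumulates, pairs with a small MAF protein and binds antioxidant response elements of genes for glutathione synthesis, thioredoxin reduction, haem breakdown and quinone reduction. Several of these genes also have other inducers, and Hmox1 is in addition repressed by BACH1.

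Promoter sequence was available for 7 members. Windows of 250 bases before the annotated start (RefSeq, GRCm38.p6) were searched on both strands for the element bound by NRF2 with a small MAF protein, TGANTCAGC, and for a core of the antioxidant response element, TGACNNNGC. Of 32851 mouse windows, 1.02% hold the first and 10.2% the second. The first was found in the windows of Osgin1 and Srxn1, which are shown because they carry the same element while their signals differed between the conditions in different ways. The capitals mark the element. It starts 99 bases before the start in Osgin1 (chr8:119436897-119437146, plus strand), where it reads on the opposite strand, and 45 bases before it in Srxn1 (chr2:152105274-152105523, plus strand).
Osgin1: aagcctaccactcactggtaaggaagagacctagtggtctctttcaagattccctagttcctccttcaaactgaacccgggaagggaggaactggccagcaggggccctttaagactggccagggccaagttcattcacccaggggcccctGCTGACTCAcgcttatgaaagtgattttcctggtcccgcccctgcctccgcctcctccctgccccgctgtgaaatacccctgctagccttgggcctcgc
Srxn1: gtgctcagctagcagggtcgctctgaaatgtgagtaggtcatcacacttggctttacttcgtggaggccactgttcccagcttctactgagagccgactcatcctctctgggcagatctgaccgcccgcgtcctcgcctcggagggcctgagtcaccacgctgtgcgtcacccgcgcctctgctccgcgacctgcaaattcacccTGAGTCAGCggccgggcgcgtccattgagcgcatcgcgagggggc
The AP-1 site TGANTCA is part of this element, so that both windows match it by construction. Of all windows, 6.75% hold that site. The Srxn1 window also holds a separate match to TGANTCA, which starts 102 bases before the start. The core TGACNNNGC was found in Nfe2l2, Gclm and 1 of the 3 windows of Txnrd1. Neither it nor TGANTCAGC was found in the windows of Nqo1 and Keap1. A match is a run of letters and does not show binding, and more distant elements were not searched.

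The level of a probe is given below as log2 of its background-corrected intensity minus the 75th percentile of log2 intensity on its own array, and a difference is a difference of such levels. For a gene with 2 probes it is the mean over both. All 12 member probes were well above background on the 4 arrays, were not flagged, and belonged to the brightest of 3 equal groups of probes by signal, called bright probes below. Each was a single spot per array. Probes printed at 8 or more spots gave a median SD between spots of 0.09 on each array, and of 0.06 among bright probes. The resulting error of a difference between arrays was 0.13 on the log2 scale, or 1.09-fold, and 0.09 for bright probes. Each is a standard deviation, so a difference beyond it can still be noise between spots. Only noise within an array enters this error, and how far cultures vary was not measured. The scanner output gave a larger error, about 10% of the signal for every member probe on every array. That error was not used as a limit, and differences just beyond 0.13 or 0.09 are not shown to exceed it.

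Removal of pyruvate was accompanied by higher signal of Osgin1 and Hmox1 at both glucose concentrations, while Gclc, Gclm, Gsr and Txnrd1 differed by at most 0.09 from their levels with pyruvate. At 5 mM glucose, 0 of 10 members reached a 2-fold difference, against 1.17% of all probes measured in both conditions. At 15 mM glucose the count was also 0 of 10, against 2.1%. Of the 13143 bright probes, 0 were higher and 0 lower by 2-fold at 5 mM glucose. At 15 mM glucose, 18 of these bright probes were higher and 29 lower by 2-fold. At a lower limit of 0.32 on the log2 scale, 1 of 10 members, Osgin1, was higher without pyruvate at 5 mM glucose, where 4.17% of all probes and 0.738% of bright probes were. Osgin1 was also the 1 of 10 past this limit at 15 mM glucose, against 8.48% of all probes and 2.66% of bright probes. The median difference of the 10 members was 0.10 at 5 mM and 0.09 at 15 mM glucose. The median of all probes was -0.02 and 0.03. Signals were higher without pyruvate for 8 of 10 members at 5 mM glucose (44.5% of all probes; 5 of these members lay lower when the arrays were scaled to spike-in controls) and for 7 of 10 at 15 mM glucose (56.0%). With those controls at 5 mM glucose, the median was -0.21 for all probes and -0.09 for the members. The median of the members lay 0.12 above that of all probes under both scalings there.

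**Figure D1:**
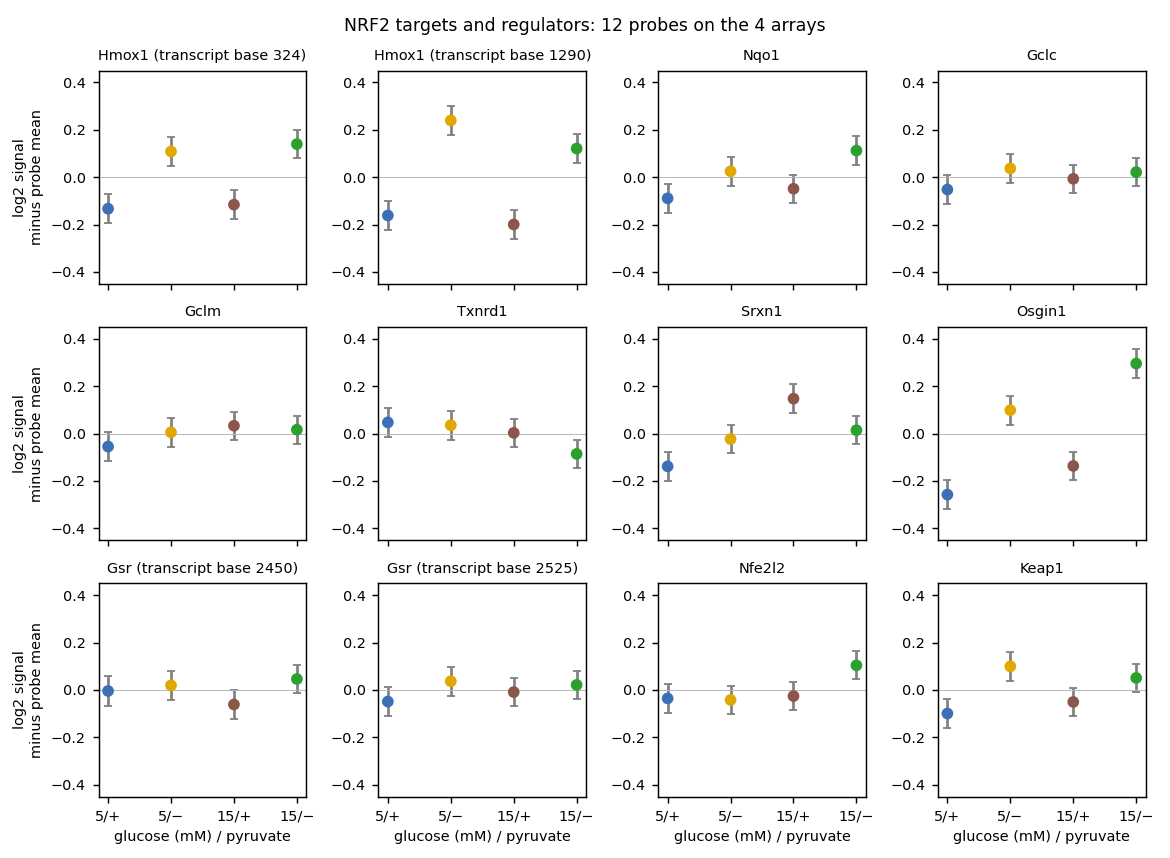
Level of each of the 12 member probes on the 4 arrays, as log2 signal minus the mean of that probe over the arrays, with glucose in mM and pyruvate present (+) or absent (−) on the horizontal axis. Bars are the median SD between spots of bright probes, 0.06, and do not cover variation between cultures. Both Hmox1 probes and Osgin1 lie higher on the 2 arrays without pyruvate than on the 2 arrays with it. For the mean of the Hmox1 probes this did not hold with spike-in controls.

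Osgin1, the gene for oxidative stress induced growth inhibitor 1, had the widest range over the arrays of the 10 members, 0.55. Its probe lies at chr8:121970077-121970136 (mm9, plus strand) and 1881 bases into the transcript. At 5 mM glucose, intensity was 13125 with and 16353 without pyruvate, and at 15 mM glucose 12754 with and 17577 without it. Both arrays without pyruvate were above both arrays with it. In level, Osgin1 was higher without pyruvate by 0.36 (1.28-fold) at 5 mM and by 0.43 (1.35-fold) at 15 mM glucose, each larger than the error between spots. With 15 mM rather than 5 mM glucose, Osgin1 was higher by 0.12 with pyruvate and by 0.20 without it.

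Hmox1 encodes haem oxygenase 1, which breaks down haem to biliverdin, carbon monoxide and iron. The probe 1290 bases into the transcript (chr8:77624207-77624266, mm9, plus strand) had an intensity of 17461 with and 22439 without pyruvate at 5 mM glucose, and of 15195 with and 19385 without it at 15 mM glucose. The probe 324 bases into the transcript (chr8:77620797-77620856) had 1322, 1521, 1195 and 1457 in the same order. On both probes each array without pyruvate was above each array with it, in intensity and in level. This did not hold for the mean of the probes with spike-in controls. Hmox1 was then higher without pyruvate by 0.13 at 5 mM glucose. With 15 rather than 5 mM glucose it differed by -0.24 without pyruvate. [Glc 15 mM/Pyr (−)] thus lay below [Glc 5 mM/Pyr (+)]. The difference was 0.40 and 0.24 on these probes at 5 mM glucose and 0.32 and 0.26 at 15 mM glucose. Their mean was 0.3214 at 5 mM glucose, just short of the limit of 0.3219, and 0.29 (1.22-fold) at 15 mM glucose. At 5 mM glucose, the members past this limit were Hmox1 and Osgin1 under 5 of 9 alternatives, Osgin1 alone under 3, and none with spike-in scaling, so that the count of 1 of 10 became 2 or 0. With 15 rather than 5 mM glucose, the Hmox1 level differed by -0.01 with pyruvate and -0.04 without it.

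Against the error of 0.13 from all probes, 2 of 10 members, Hmox1 and Osgin1, were higher without pyruvate at both glucose concentrations, as were 5.18% of 21716 genes measured on all arrays. Against the error of 0.09 from bright probes, 4 of 10 were, with Nqo1 and Keap1 in addition, and 6.38% of the 13143 bright probes. Without regard to that error, 6 of 10 members were higher in both, against 25.5% of genes. These counts depend on the scaling. With spike-in controls, which shifted all probes by a median of -0.19 at 5 mM glucose, Keap1 was at 0.01 there. Nqo1, Gclc and Gsr, also among the 6, then lay lower at -0.07, -0.10 and -0.13. None of the 10 members differed in opposite directions beyond the error of 0.13, whereas 10.7% of genes did. Beyond the error of 0.09, 1 of 10 did, Srxn1, and 10.2% of bright probes. With spike-in controls, Srxn1 differed by -0.07 at 5 mM and by -0.17 at 15 mM glucose.

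**Figure D2:**
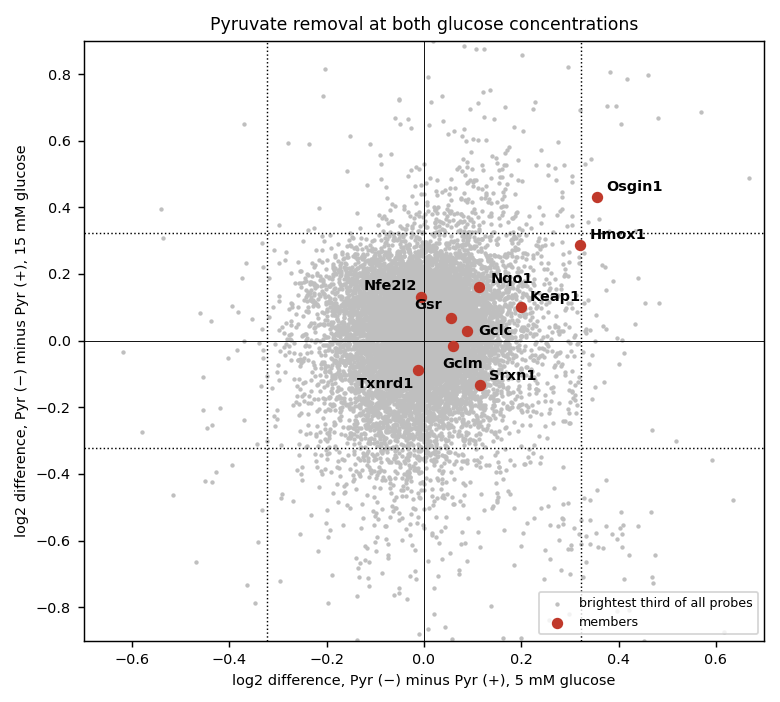
Difference in log2 level without minus with pyruvate, on the horizontal axis for 5 mM and on the vertical axis for 15 mM glucose, for the 10 members (red) and the bright probes (grey, 13143 probes, of which 70 lie outside the axes). Dotted lines mark 0.32, and Osgin1 is the member beyond both of them, at 0.36 and 0.43.

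Nqo1, a quinone reductase often used as a readout of NRF2, differed less. Its level was 0.21 with and 0.32 without pyruvate at 5 mM glucose, and 0.25 with and 0.41 without it at 15 mM glucose. Both levels without pyruvate were above both with it, but the difference of 0.11 at 5 mM glucose was within the error of 0.13 and beyond that of 0.09 for bright probes, and that of 0.16 at 15 mM glucose was beyond both.

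Among the regulators, Nfe2l2 had levels of 3.22 with and 3.21 without pyruvate at 5 mM glucose, and of 3.23 with and 3.36 without it at 15 mM glucose. With this scaling, [Glc 15 mM/Pyr (−)] stood above the other 3 arrays, by 0.13 over 15 mM glucose with pyruvate and by 0.15 over 5 mM glucose without it. The first, 0.1297, only just exceeded the error of 0.1277. With quantile normalization or cyclic loess the second was 0.07, within the error of bright probes. With spike-in controls it was -0.05, so that [Glc 15 mM/Pyr (−)] was then not the highest array. Keap1, the gene for the sensor that holds NRF2 in check, had levels of 1.86, 2.06, 1.91 and 2.01 in the same order. It was higher without pyruvate by 0.20 at 5 mM glucose and by 0.10 at 15 mM glucose, the second beyond the error of bright probes but within that of 0.13. The arrays measured mRNA, and the NRF2 protein, through which KEAP1 acts, was not measured on them.

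The genes of glutathione metabolism were the least variable members. Gclc and Gclm encode the catalytic and modifier subunits of glutamate-cysteine ligase, which catalyses the first step of glutathione synthesis, and Gsr encodes the reductase that restores oxidized glutathione. Gclc ranged over 0.09 between the lowest and highest array, Gclm over 0.09 and Gsr over 0.07. All of their differences in the 4 comparisons were within 0.13. Gclc without pyruvate at 5 mM glucose (0.089) and Gclm with 15 rather than 5 mM glucose in pyruvate (0.088) slightly exceeded the error of bright probes, 0.085. The differences without pyruvate at 5 and 15 mM glucose were 0.09 and 0.03 for Gclc, 0.06 and -0.02 for Gclm, and 0.05 and 0.07 for Gsr. The 2 Gsr probes lie 2450 and 2525 bases into the transcript. Singly, they differed without pyruvate by 0.02 and 0.09 at 5 mM glucose and by 0.11 and 0.03 at 15 mM glucose.

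Of the genes of the thioredoxin system, Txnrd1, cytosolic thioredoxin reductase, had levels of 4.84 with and 4.82 without pyruvate at 5 mM glucose, and of 4.79 with and 4.70 without it at 15 mM glucose. Its lowest array was [Glc 15 mM/Pyr (−)], the condition in which Osgin1 was highest, and its difference without pyruvate was -0.01 at 5 mM and -0.09 at 15 mM glucose. Srxn1, sulfiredoxin, which reduces over-oxidized peroxiredoxins, had levels of 5.09, 5.20, 5.37 and 5.24 in the same order, with the highest in [Glc 15 mM/Pyr (+)]. It was the member that differed most with glucose, by 0.29 with pyruvate (1.22-fold) and 0.04 without it. Its pyruvate difference was 0.11 at 5 mM and -0.13 at 15 mM glucose, a gap of -0.25 that was the widest of the 10 members and was not tested. Both exceeded the error of 0.09 for bright probes, and the first did not exceed that of 0.13 for all probes. Osgin1 was higher at both glucose concentrations, so that the pair of members with the element TGANTCAGC had different patterns over the arrays.

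The comparisons of 15 with 5 mM glucose share their arrays with the comparisons of pyruvate. With pyruvate, 0 of 10 members reached 2-fold (0.968% of all probes) and 0 of 10 were higher by 0.32 (3.04% of all probes). Without pyruvate, 0 of 10 reached 2-fold (2.4%) and 0 of 10 were higher by 0.32 (8.14%). Of the 13143 bright probes, 1 was higher and 1 lower by 2-fold with pyruvate, and 90 were higher by 0.32. Without pyruvate, 13 bright probes were higher and 39 lower by 2-fold, and 425 were higher by 0.32. The median difference of the members was 0.04 with pyruvate and 0.01 without it, and that of all probes was -0.02 and 0.03. Srxn1 was highest with pyruvate and Txnrd1 lowest at -0.04, and without pyruvate Osgin1 was highest at 0.20 and Txnrd1 lowest at -0.12. These signs depend on the scaling, since spike-in controls shifted all probes by a median of -0.35 with pyruvate and -0.20 without it, and with pyruvate Srxn1 was then at -0.06 and Osgin1 at -0.23.

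As a test with residual degrees of freedom, additive effects of pyruvate and glucose were fitted to all 4 arrays with limma. This fit leaves 1 such degree and counts any dependence of one effect on the other as error. After Benjamini-Hochberg adjustment over 31274 probes, 0 members and 0 probes passed 0.05 for pyruvate, with 1077 probes at an unadjusted p under 0.05, and 0 for glucose, with 1496. The pyruvate effect of Osgin1 was 0.39 (SE 0.092, limma adjusted p = 0.985). That of the brighter Hmox1 probe was 0.36 (SE 0.092, limma adjusted p = 0.985), and that of the other probe was 0.25 (SE 0.089, limma adjusted p = 0.985). By unadjusted p, Osgin1 ranked 640 and the brighter Hmox1 probe 798 of these probes, and 0.985 was the smallest adjusted p of any member for pyruvate. For glucose it was 0.772, for Osgin1 and Srxn1 by limma.

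The other genes of the pathway were 68 in number, of which 66 were on the array and 61 were measured on all arrays. Their median difference without pyruvate was 0.03 at 5 mM and 0.09 at 15 mM glucose, and spike-in scaling turned the first to -0.16. Higher were 37 and 47 of 61, against 44.5% and 56.0% of all probes. Past 2-fold were 0 of 61 at 5 mM and 2 of 61 at 15 mM glucose (1.17% and 2.1% of all probes), and past 1.5-fold 1 and 3 of 61, and 0 of 10 members (3.2% and 6.54% of all probes). Of the 13143 bright probes, 5 were higher and 1 lower by 1.5-fold at 5 mM glucose, and 78 and 134 at 15 mM glucose. Sesn2, a sestrin of the antioxidant and nutrient-sensing response, was the highest of the 61 genes at 5 mM glucose. Its intensity was 5820 with and 8405 without pyruvate at 5 mM glucose, and 5772 with and 9486 without it at 15 mM glucose. In level it was higher without pyruvate by 0.57 and 0.69. Both arrays without pyruvate were above both with it, as for Osgin1 and, without spike-in scaling, for Hmox1, and by more than for either.

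Gpx2, an intestinal-type glutathione peroxidase, was the lowest at 15 mM glucose. Its intensity was 1694, 1562, 1437 and 732 in the same order, so that [Glc 15 mM/Pyr (−)] stood below the other 3 arrays, and its difference without pyruvate was -0.08 at 5 mM and -1.005 at 15 mM glucose. Ugt1a6a, a glucuronosyltransferase, had a dim probe of 34.2 to 101.7 intensity units, and differed by -0.99 at 5 mM and 1.51 at 15 mM glucose. With 15 rather than 5 mM glucose it differed by -1.41 with pyruvate, the 1 of 61 past 2-fold there, and by 1.08 without pyruvate, where Gpx2 differed by -1.002. Among all bright probes, 48.8% were higher without pyruvate at 5 mM and 57.6% at 15 mM glucose. Of genes for detoxifying enzymes, 5 of 11 were higher without pyruvate at 5 mM glucose and 11 of 11 at 15 mM glucose, with medians of -0.01 and 0.10. Of genes for NADPH supply, 6 of 6 and 4 of 6 were higher, with medians of 0.06 and 0.03. Of 18 other glutathione genes, 11 and 15 were higher, with medians of 0.05 and 0.13. Of 4 other genes listed under thioredoxin, Txn1, Prdx1, Prdx6 and the sestrin Sesn2, 2 and 4 were higher. Of 5 for haem and iron, 4 and 3 were. Fth1, the heavy chain of ferritin, was the highest of the other genes in the comparison of glucose with pyruvate, at 0.22.

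**Figure D3:**
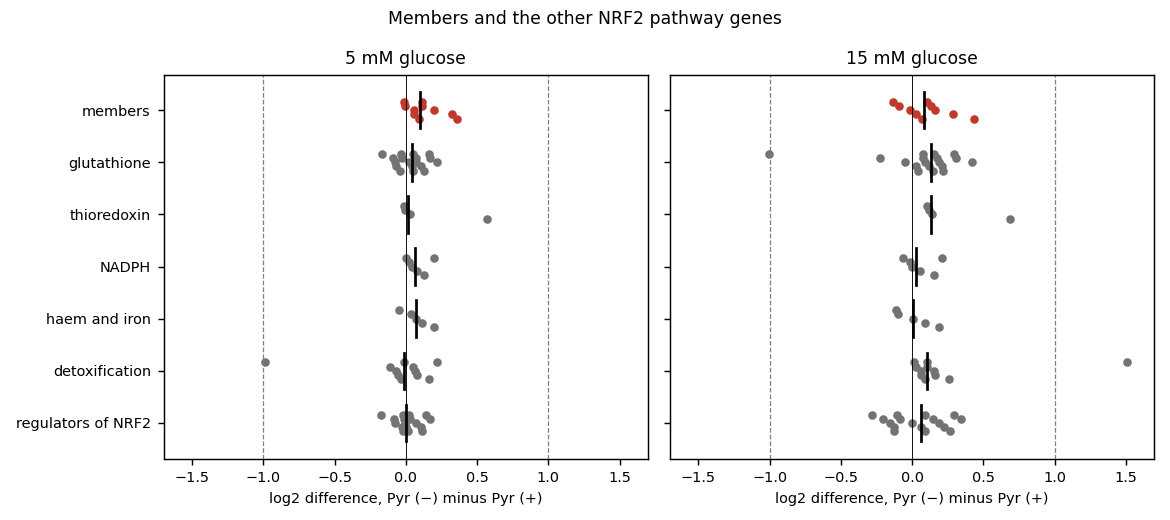
Difference in log2 level without minus with pyruvate for the 10 members (red) and the other measured genes of the pathway (grey, 1 point per gene) by role, at 5 mM glucose (left) and 15 mM glucose (right). Black bars are medians and dashed lines mark 2-fold, which Ugt1a6a (1.51) and Gpx2 (-1.005) passed at 15 mM glucose.

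Of the partners and controllers of NRF2, none reached 1.5-fold without pyruvate. The small MAF genes, whose products pair with NRF2, differed at 5 and 15 mM glucose by -0.18 and 0.29 for Maff, 0.14 and 0.06 for Mafg, and 0.01 and 0.19 for Mafk. Bach1, the repressor of Hmox1, differed by -0.02 and -0.13. Cul3 and Rbx1, of the ligase that acts with KEAP1, differed by 0.11 and 0.09 and by -0.01 and 0.15. Nfe2l1, a relative of Nfe2l2, differed by 0.07 and 0.09. Bach2 was not well above background.

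Over the 4 arrays, the genes whose pattern was closest to that of Osgin1 among 21716 were Tal1, Sprr2k, Cdkn2aip, Insig1 and Rcsd1, at a Euclidean distance between centred log2 levels of 0.04 to 0.05. The distance of Hmox1, the nearest member, was 0.21, and its rank was 476. With 4 points, the measure describes likeness on these arrays only.

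The 75th percentile of intensity was 1597 to 1788 and 28470 to 30344 probes were well above background. Markers of Schwann cells were above background on all arrays for 12 of 12 genes, with Ngfr at 14827 to 18042 and Sox10 at 4837 to 5667 intensity units. Markers of other cell types were above background on all arrays for 5 of 6 genes of fibroblasts, 5 of 5 of macrophages, 2 of 4 of neurons and 2 of 4 of endothelium. Of the macrophage markers, Cd68 was at 969 to 1817, highest in [Glc 15 mM/Pyr (−)]. Ptprc (23.4 to 29.6), Aif1 (259 to 387) and the brightest Itgam probe (7997 to 13155) were at their lowest there. Averaged over its 3 probes, Itgam was higher by 0.07 without pyruvate at 15 mM glucose. The brightest Csf1r probe was at 1001 to 1063. The part of other cells in the member values was not tested.

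Scaling to 8 of 10 spike-in controls in place of the 75th percentile shifted the median of all probes by -0.19 at 5 mM and by -0.04 at 15 mM glucose. At 5 mM glucose, Nqo1, Gclc, Gclm, Gsr and Srxn1 then lay below their levels with pyruvate. Hmox1 and Osgin1 were higher without pyruvate in 9 of 9 alternatives at both glucose concentrations. Hmox1 ranged from 0.13 to 0.40 at 5 mM and from 0.25 to 0.32 at 15 mM glucose, and Osgin1 from 0.17 to 0.37 and from 0.39 to 0.44. Relative to the median of all probes under the same scaling, Osgin1 ranged from 0.34 to 0.37 and from 0.38 to 0.48, and Hmox1 from 0.30 to 0.42 and from 0.24 to 0.30.

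**Figure D4:**
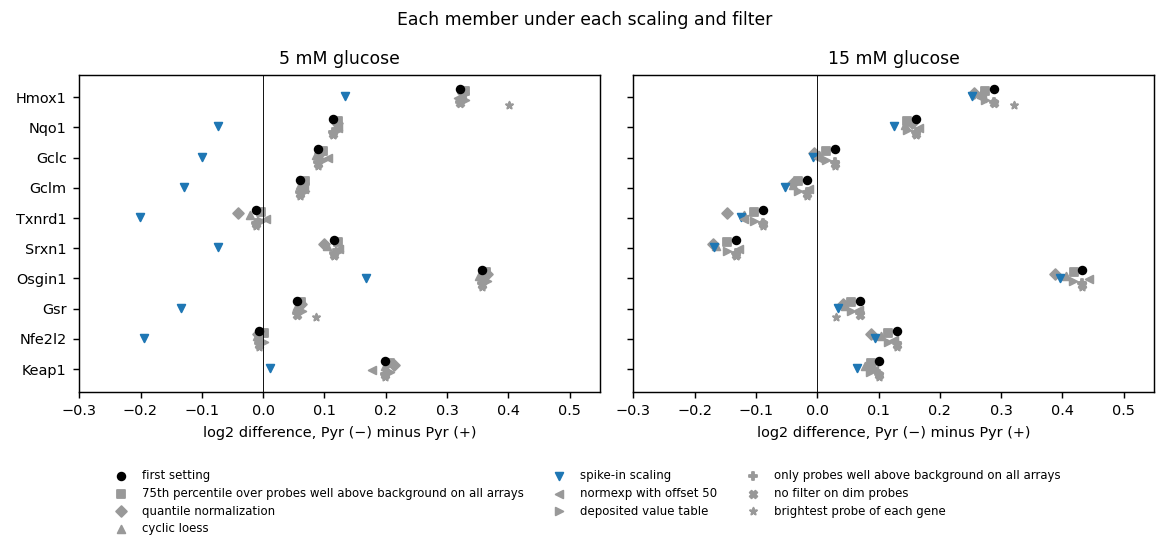
Difference in log2 level without minus with pyruvate for each member under the first setting (black), spike-in scaling (blue) and the other alternatives (grey), at 5 mM glucose (left) and 15 mM glucose (right). Hmox1 and Osgin1 stay above 0 under each setting, and at 5 mM glucose spike-in scaling moves every member lower.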

How the data were processed

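RNA of IMS32 cells was measured on 4 one-colour Agilent whole mouse genome arrays, 1 per condition. The authors deposited scanner output of Agilent Feature Extraction 11.5.1.1 (the submitters' processing notes), whose processed values are background-corrected intensity per spot, not scaled between arrays. The table deposited beside it holds a ratio, this intensity divided by 1 number per array (44397 features, largest relative deviation 5.6e-07). Analysis by GeneSpring GX is named in the methods, without settings. Here, unflagged spots of a probe were averaged, and log2 intensity was taken minus its 75th percentile on each array. A probe well above background in both conditions was measured, and measured probes of 1 gene were averaged. The arrays give no read depth, and their number limits the precision. No replicate exists, so differences are values without a test, and limma 3.58.1 under R 4.3.3 was used only for the additive fit of pyruvate and glucose (adjusted p under 0.05). The fit was tested on simulated data with planted differences much larger than those of the members, which does not show what it could detect here. The other calculations used Python 3.11.15, numpy 2.4.6 and pandas 2.3.3.

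The members and gene lists were chosen with earlier results of these data known. Text names all members, other pathway genes past 1.5-fold in any comparison, the highest and lowest in each, fixed partners of NRF2, and the 5 genes nearest in pattern to the member of widest range. Alternatives were 6 other scalings (percentile restricted to well measured probes, cyclic loess, quantile, spike-in controls, normexp with an offset of 50 and the deposited ratio), no filter or a stricter filter on dim signal, 1 probe per gene (the brightest), lower fold limits, bounds for probes measured in 1 condition, and a trend with intensity in the fit. The bright probes as background, their spot error as a limit, member counts at the lowest fold limit under each alternative, and the motif TGANTCAGC were chosen after seeing the data. Probe positions are those of the scanner files (mm9), which give no exon or UTR, and promoters came from a RefSeq table (GRCm38.p6) that held 7 members.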

Additional observations from a re-analysis of the deposited data

Results flagged for a closer look

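Genes of the pathway that lay in opposite directions without pyruvate at the 2 glucose concentrations, each by more than the error between spots, are given here with log2 differences at 5 and then 15 mM glucose. They were -0.99 and 1.51 for Ugt1a6a, -0.17 and 0.18 for Mgst1, -0.18 and 0.29 for Maff, and 0.17 and -0.15 for Crebbp. With 1 array per condition, the difference between the glucose concentrations was not tested for any of them, and 10.7% of all genes measured on the 4 arrays met the same description. Spike-in scaling shifted each difference at 5 mM glucose by -0.19, which is more than the 0.17 of Crebbp. Its directions were then no longer opposite.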

How the results depend on the processing

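No member passed 2-fold under any alternative run at that limit, nor 1.5-fold under the first setting, where 1 of 10 passed the limit of 0.32 (log2) in each comparison of pyruvate (at 5 mM, 2 of 10 under 5 of 9 alternatives and 0 with spike-in scaling). Spike-in scaling moved the centre of all probes by -0.19 (pyruvate at 5 mM), -0.04 (pyruvate at 15 mM), -0.35 (glucose with pyruvate) and -0.20 (glucose without it). In the first and the last 2 of these it moved the member median to -0.087, -0.31 and -0.19 and that of the other pathway genes to -0.16, -0.30 and -0.079. All 30 single-gene values that moved did so under it, while 330 did not. The other pathway genes past 2-fold, 0 and 2 for pyruvate at 5 and 15 mM and 1 and 2 for glucose with and without pyruvate, became 1 for pyruvate at 5 mM with spike-in scaling, with no filter on dim probes and at 1.5-fold, and 2 at the limit of 0.32. For pyruvate at 15 mM they were 1 with quantile normalization, 0 with normexp and 5 at 0.32. For glucose with pyruvate they were 0 with normexp, and without pyruvate 1 with quantile normalization or spike-in scaling, 0 with normexp and 8 at 0.32. The probes past 2-fold, 340, 583, 273 and 676 in the same order, were 10, 100, 8 and 113 with normexp, whose offset compresses dim signals, 1652, 2546, 1624 and 2757 with no filter, 821, 1236, 766 and 1320 with bounds, 931, 1817, 880 and 2053 at 1.5-fold and 2922, 4882, 3337 and 5557 at 0.32. With spike-in scaling they were 495 for glucose with pyruvate. Of probes past 2-fold, 48.5% were higher for pyruvate at 5 mM (29.7% with spike-in scaling, 60% with normexp), 45.5% for pyruvate at 15 mM (54.6% with no filter), 46.2% for glucose with pyruvate (13.5% with spike-in scaling, 61.3% with quantile normalization, 59.0% with cyclic loess, 75% with normexp, 34.4% with no filter) and 39.3% for glucose without pyruvate (20.3% with spike-in scaling). The limma fit called 0 probes for either factor under the alternatives run, with 1093 to 1571 at an unadjusted p under 0.05 for pyruvate and 1301 to 5079 for glucose. Unless stated, the cause was not tested. No paired analysis was possible because the labels give no replicate numbers. Single cultures, and single spots of each member probe per array, limit every value.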
